A study of Mus musculus with 19 samples.

Results

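The 10 genes described here encode the 3 TGF-beta ligands (*Tgfb1*, *Tgfb2* and *Tgfb3*), the 3 TGF-beta receptors (*Tgfbr1*, *Tgfbr2* and *Tgfbr3*), the inhibitory Smads of both branches (*Smad6* and *Smad7*) and a pair of targets of BMP signalling (*Id1* and *Id3*). They were chosen by name, and each was found by its symbol on a single entry among the 60567 entries of the table of normalized mRNA levels. RNA sequencing was performed on cells sorted from the hippocampus of male C57bl6 mice at 9 months of age. WT-GFP mice are littermates without mutated transgenes, while APP-GFP and APP-SOCS3 mice are APP/PS1dE9 mice, a model of Alzheimer's disease whose transgenes include a mouse/human hybrid *App* carrying the Swedish mutations. All mice had received an adeno-associated virus (AAV) in the hippocampus, with expression driven by the astrocyte promoter gfaABC1D. The virus encoded GFP alone in the 7 WT-GFP and the 4 APP-GFP samples. For the 5 APP-SOCS3 samples, a separate virus encoding SOCS3, an intracellular inhibitor of the JAK-STAT3 pathway, was injected together with the GFP virus. The total viral titer was the same, and cells were sorted by GFP and not by SOCS3. The 16 samples of these 3 groups hold GFP+ astrocytes. A further 3 samples hold the GFP- cells of WT-GFP mice. This mixture is described as including microglia, neurons, oligodendrocyte precursor cells and astrocytes that were not infected. No group without virus and no WT group with SOCS3 was analysed here, only infected astrocytes are represented in the GFP+ samples, and the study counts the GFP+ samples as mice, with the hippocampi of each mouse sorted separately. The labels do not tie samples to mice, so it is not known here whether samples of GFP- and GFP+ cells came from the same mouse, and p-values treat all samples as independent.

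TGF-beta ligands are secreted in a latent form and, once freed, bind a complex of the type II receptor TGFBR2 and the type I receptor TGFBR1, helped by the coreceptor TGFBR3 (betaglycan). The receptors phosphorylate SMAD2 and SMAD3, while BMP receptors phosphorylate SMAD1, SMAD5 and SMAD9, and both sets move to the nucleus with SMAD4. *Id1* and *Id3* are induced by BMP signalling and encode helix-loop-helix proteins that block differentiation factors, and *Smad6* and *Smad7* are induced by the pathway and feed back on it, SMAD6 mainly on the BMP branch and SMAD7 on both. In the adult brain, TGF-beta1 is known as a product of microglia that keeps microglia in their resting state, and TGF-beta and BMP signals are known to act on blood vessels and on astrocytes.

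In the positions given by the authors on the mm10 mouse genome, the ligand genes lie at chr7:25687000-25705076 (*Tgfb1*), chr1:186622792-186705992 (*Tgfb2*) and chr12:86056744-86079041 (*Tgfb3*), the receptor genes at chr4:47353222-47414927 (*Tgfbr1*), chr9:116084297-116175447 (*Tgfbr2*) and chr5:107106572-107289596 (*Tgfbr3*), the target genes at chr2:152736251-152737410 (*Id1*) and chr4:136143822-136145392 (*Id3*), and *Smad6* at chr9:63953076-64022059. All 10 are protein coding in GENCODE M21. *Tgfb2*, *Tgfb3* and *Tgfbr3* overlap other annotated genes (an antisense RNA and a small nucleolar RNA, the protein-coding Ttll5 and other transcripts of the opposite strand, and small predicted entries), and since it is not stated whether reads were counted by strand, reads of these partners cannot be told apart from theirs.

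Promoters were at hand for 6 of the 10 genes, in the RefSeq set for GRCm38.p6 (mm10). They are shown for the ligand genes with the largest and the smallest difference between the sorted fractions (*Tgfb1* and *Tgfb2*), for the abundant target *Id3* and for *Smad6*, as the 250 bases before the annotated start, 5′ to 3′ along the gene. Capitals mark matches, on either strand, to CAGAC, a short SMAD-binding element, or to a longer SMAD site of BMP target genes in which GNCGNC and GTCT stand a fixed distance apart. The windows are chr7:25686752-25687001 (plus strand) for *Tgfb1*, chr1:186705990-186706239 (minus strand) for *Tgfb2*, chr4:136143572-136143821 (plus strand) for *Id3* and chr9:64022060-64022309 (minus strand) for *Smad6*.
Tgfb1: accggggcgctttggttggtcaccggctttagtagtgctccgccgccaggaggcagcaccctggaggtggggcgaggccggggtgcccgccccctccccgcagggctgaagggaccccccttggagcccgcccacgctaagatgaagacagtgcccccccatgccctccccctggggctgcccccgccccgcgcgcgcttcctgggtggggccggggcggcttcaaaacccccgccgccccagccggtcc
Tgfb2: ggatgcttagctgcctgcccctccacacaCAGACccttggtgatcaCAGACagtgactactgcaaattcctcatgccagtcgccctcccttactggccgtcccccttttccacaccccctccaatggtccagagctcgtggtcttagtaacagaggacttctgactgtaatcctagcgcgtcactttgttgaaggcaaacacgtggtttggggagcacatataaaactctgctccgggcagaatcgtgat
Id3: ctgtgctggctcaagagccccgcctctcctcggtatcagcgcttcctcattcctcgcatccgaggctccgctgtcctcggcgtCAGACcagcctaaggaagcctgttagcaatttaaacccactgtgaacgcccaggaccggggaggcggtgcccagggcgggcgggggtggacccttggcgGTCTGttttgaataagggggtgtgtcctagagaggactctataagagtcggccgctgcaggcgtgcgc
Smad6: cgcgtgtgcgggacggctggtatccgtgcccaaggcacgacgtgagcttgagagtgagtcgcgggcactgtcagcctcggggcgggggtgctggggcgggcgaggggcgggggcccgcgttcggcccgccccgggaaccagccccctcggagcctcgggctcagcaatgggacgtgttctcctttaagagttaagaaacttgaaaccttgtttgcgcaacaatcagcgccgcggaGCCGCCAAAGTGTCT
The *Tgfb1* window held no match to any of the 4 motifs searched and had a GC content of 75.2%, against 53.6% for *Tgfb2*. CAGAC stood at 2 places in the *Tgfb2* window and at 2 in the *Id3* window, and was also found in the windows of *Tgfbr2* and of an alternative start of *Tgfbr1*. It was found in 42.2% of all 32851 promoter windows of this length. The longer BMP-type site was found once, at the 3′ end of the *Smad6* window, and in 0.511% of all windows. The other motifs searched on both strands were GGCGCC, which was found in the window of the first start of *Tgfbr1* and in 9.59% of all windows, and the STAT-type element TTCNNNGAA, which was found in none of the windows of these genes and in 7.02% of all windows. These matches describe the letters of the windows only.

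Reads counted on genes ranged from 19331876 to 32621917 per sample. In 4 astrocyte samples (WT-GFP replicates 1, 2 and 3 and APP-GFP replicate 2), between 15575 and 19198 entries had at least 1 read, against 21602 or more in the other 15, and counts of called genes among those described are also given without these 4 samples. All 15 genes of an astrocyte marker list, such as *Aqp4* and *Gja1*, were called higher in WT-GFP astrocytes than in the GFP- fraction, while the lists of microglia, endothelial and mural cells were called lower with all of their 20, 20 and 12 genes. Of the other lists, 7 of 8 border macrophage and 10 of 14 neuronal genes were called lower, and of oligodendrocyte precursor and oligodendrocyte genes 8 of 9 and 3 of 9 were called lower and 1 and 2 higher. *Socs3* ranged from 13296 to 37750.1 in APP-SOCS3 samples and from 438 to 1639 in APP-GFP samples. *App* ranged from 3663 to 11151 in APP-GFP samples, but from 2633 to 6011 in APP-SOCS3 samples and from 1735 to 5624 in WT-GFP samples, so that it did not set APP-SOCS3 samples apart from WT-GFP samples.

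Levels were first compared between GFP+ astrocytes and GFP- cells of WT-GFP mice. The question was which of these genes are found at higher or lower mRNA levels in astrocytes than in the other sorted hippocampal cells. Of the 10 genes, 9 were called lower in astrocytes (limma p not above 0.05, 1.5-fold or more), none was called higher and *Id3* was not called. Of all 26709 genes tested, 33.5% were called lower and 9.25% higher. The median log2 fold change of the 10 genes was -3.70, against -1.31 for all genes tested. With a Benjamini-Hochberg adjusted p under 0.05 in limma, 6 of the 10 were lower (*Tgfb1*, *Tgfb3*, *Tgfbr2*, *Tgfbr3*, *Id1* and *Smad7*), while 24.5% of all genes tested were lower and 7.38% higher at this threshold. In 8 of the 10, each of the 7 astrocyte samples was below each of the 3 samples of GFP- cells, which held for 27.2% of all genes tested, and *Tgfb2* and *Id3* overlapped. Relative to the limma median of all genes, *Id3* stood higher, *Tgfb2* was nearly level and the other 8 stood lower. This median depends on the method, at -0.37 with edgeR and -0.67 with DESeq2, and *Tgfb2* stood below both. The exact permutation test (2-sided) gave its smallest possible value, 0.0167, for the 8 genes without overlap.

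**Figure D1:**
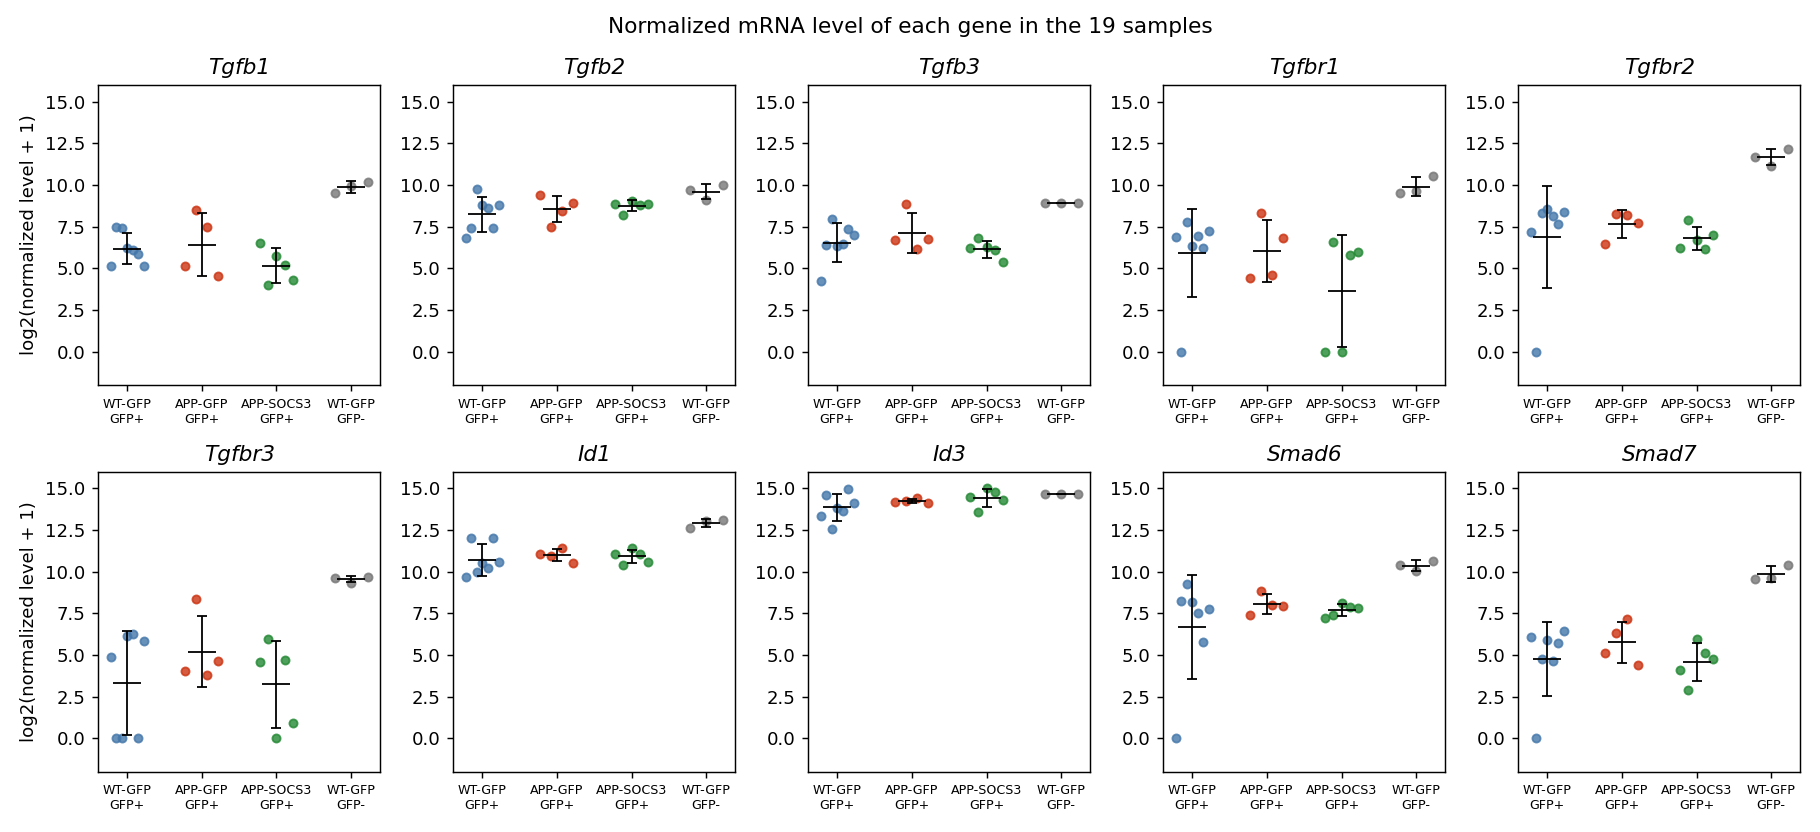
Normalized mRNA level, as log2(level + 1), of each gene in the 19 samples. Each point is a sample, and black lines show the mean and SD of the log2 values of each group (7 WT-GFP, 4 APP-GFP, 5 APP-SOCS3 and 3 GFP- samples). GFP- cells stood above all WT-GFP astrocyte samples in 8 of the 10 genes, and APP-GFP samples overlapped with both other groups of astrocytes in all 10.

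Among the ligands, *Tgfb1* was 11.0-fold lower in astrocytes on average, while *Tgfb2* was the ligand with the smallest difference. *Tgfb1* had normalized levels of 719, 995 and 1169 in the 3 samples of GFP- cells and ranged from 34.2 to 175 with a median of 66.6 in WT-GFP astrocytes. Its log2 fold change was -3.69 ± 0.60 (SE) (limma, adjusted p = 0.00086). All 7 astrocyte samples thus held at most 18.2% of the mean of GFP- cells. *Tgfb2*, a ligand also known from neural development, had 821, 549.7 and 1015 in GFP- cells and ranged from 114 to 862 with a median of 391 in astrocytes, where replicate 3 was above 2 of the samples of GFP- cells. Its log2 fold change was -1.36 ± 0.59 (SE), with an adjusted p of 0.0986 in limma and a 2-sided exact permutation p of 0.05. It was close to the limma median of all genes. Its call was lost with edgeR, DESeq2 and the replicate block, and when WT-GFP replicate 1, 2 or 6 or GFP- replicate 1 or 3 was left out. *Tgfb3* had 481, 487 and 487 in GFP- cells and ranged from 18.2 to 245 with a median of 86.5 in astrocytes. The 3 samples of GFP- cells were nearly alike for this ligand, the highest astrocyte sample reached 50.5% of their mean, and the log2 fold change was -2.39 ± 0.69 (SE) (limma, adjusted p = 0.0218).

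The levels of these ligands relative to each other were also described, a choice made after the values were seen. The log2 ratio of *Tgfb2* to *Tgfb1* ranged from -0.85 to 0.19 in GFP- cells, from -0.047 to 3.60 in WT-GFP astrocytes, from -1.03 to 4.41 in the APP-GFP group and, with SOCS3, from 2.33 to 4.60. The ratio was above all samples of GFP- cells in the 5 APP-SOCS3 samples, and overlapped with them in WT-GFP and APP-GFP samples. As lengths of the counted regions are not given, this ratio compares samples and does not say which ligand has more mRNA.

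The 3 receptor genes were all called lower in astrocytes, without overlap between the fractions. *Tgfbr2*, the type II receptor that binds the ligand first, had levels of 3295, 2293 and 4555 in GFP- cells and ranged from 0 to 377 with a median of 280.3 in astrocytes. The mean was 14.3 times higher in GFP- cells, and the log2 fold change was -4.78 ± 1.60 (SE) (limma, adjusted p = 0.042). *Tgfbr1*, the type I receptor kinase, had 734, 786 and 1502 in GFP- cells and ranged from 0 to 220.1 with a median of 116 in astrocytes. Its log2 fold change was -3.99 ± 1.42 (SE), with an adjusted p of 0.0522 in limma. *Tgfbr3*, the coreceptor that presents ligand to TGFBR2, had 787, 642 and 828 in GFP- cells and was listed at 0 in WT-GFP replicates 2, 3 and 6, with 28.9 to 75.3 in the other 4. It had the largest log2 fold change of the 10 genes, -6.24 ± 1.71 (SE) (limma, adjusted p = 0.0182). WT-GFP replicate 2 was at 0 for all 3 receptor genes and for *Smad7*. Without the 4 samples with few entries detected, 9 of the 10 genes were again called lower, and the log2 fold changes of genes listed at 0 in some samples were closer to 0, -3.49 for *Tgfbr2*, -3.22 for *Tgfbr1*, -4.99 for *Tgfbr3*, -4.19 for *Smad7* and -3.06 for *Smad6*.

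The inhibitory Smads were lower in astrocytes as well. *Smad7* had levels of 741, 792 and 1349 in GFP- cells and ranged from 0 to 84.6 with a median of 50.8 in astrocytes. Its mean was 21.7 times higher in GFP- cells and its log2 fold change was -5.07 ± 1.23 (SE) (limma, adjusted p = 0.00979). *Smad6* had 1379.7, 1039.8 and 1591 in GFP- cells and ranged from 0 to 605 with a median of 214 in astrocytes, where WT-GFP replicate 1 was at 0. Its log2 fold change was -3.70 ± 1.63 (SE), with an adjusted p of 0.105 in limma. The call of *Smad6* was lost when WT-GFP replicate 5, 6 or 7 or any of the samples of GFP- cells was left out, although astrocytes and GFP- cells did not overlap.

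The target genes *Id1* and *Id3* differed from one another. *Id1* had levels of 6362, 8551 and 8647 in GFP- cells and ranged from 806 to 4190.2 with a median of 1447 in astrocytes. All astrocyte samples were below the GFP- cells, and the log2 fold change was -2.21 ± 0.50 (SE) (limma, adjusted p = 0.00702). *Id3* had 26346, 25968 and 25854 in GFP- cells and ranged from 5967 to 31553 with a median of 14569 in astrocytes, where replicate 6 was above all 3 samples of GFP- cells. Its log2 fold change of -0.81 ± 0.42 (SE) did not pass the test (adjusted p = 0.16 in limma, 2-sided exact permutation p = 0.117), and it was the only one of the 10 genes that was not called. The log2 ratio of *Id3* to *Id1*, also chosen after the values were seen, ranged from 1.58 to 2.05 in GFP- cells and from 2.54 to 3.67 in WT-GFP astrocytes, so that the groups did not overlap. It lay at 3.04 to 3.59 in the APP-GFP group, and with SOCS3 at 3.19 to 3.72, again above GFP- cells in every sample.

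**Figure D2:**
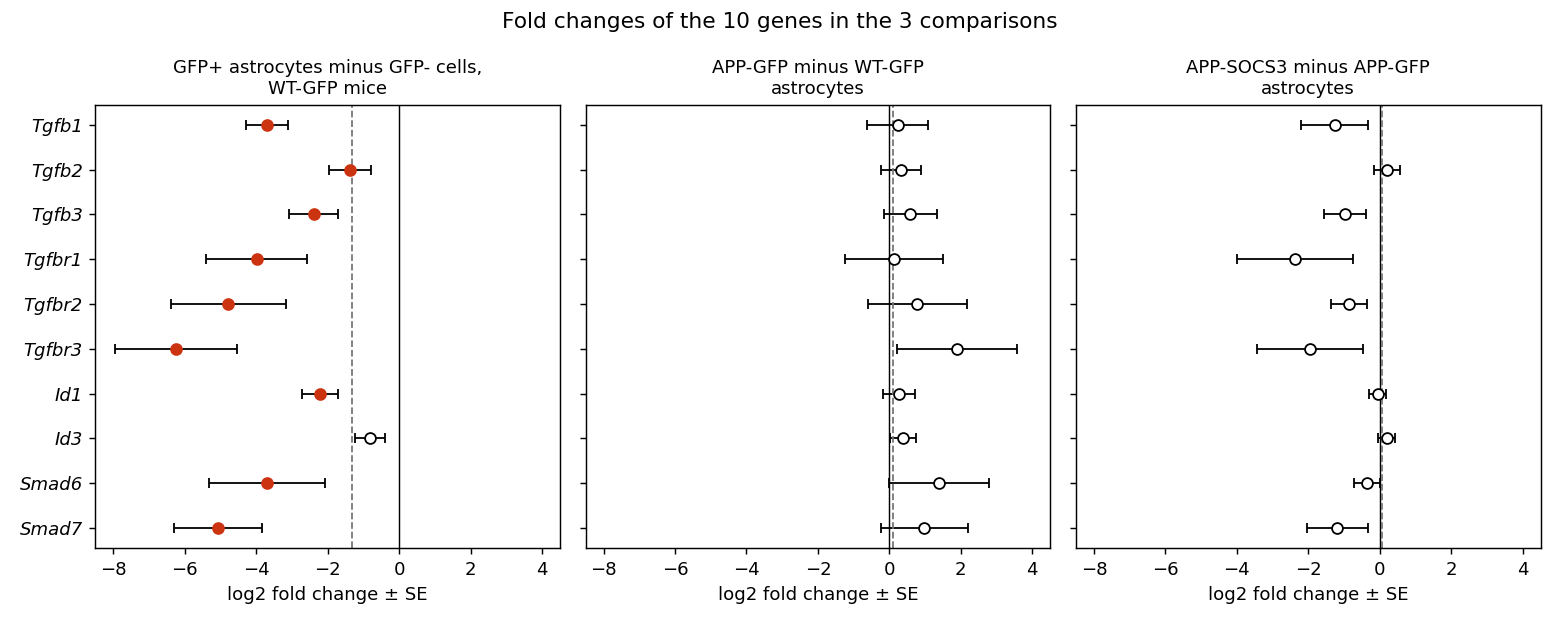
Log2 fold change with SE (limma) of each gene in the 3 comparisons. Filled red points were called (p not above 0.05, 1.5-fold or more), open points were not, and the dashed line is the median of all genes tested (-1.31, 0.092 and 0.076). The 9 called genes lie left of zero in the comparison of sorted fractions, and no gene was called in the other 2 comparisons.

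What remained of these mRNAs in the GFP+ samples was set beside the remaining level of marker genes of other cell types. Median levels in WT-GFP astrocytes, as a percent of the mean of GFP- cells, were 3.83% for *Tgfbr3*, 5.29% for *Smad7*, 6.93% for *Tgfb1*, 8.29% for *Tgfbr2* and 11.5% for *Tgfbr1*. They were higher for *Smad6* (16%), *Tgfb3* (17.8%) and *Id1* (18.4%), and were 49.2% for *Tgfb2* and 55.9% for *Id3*. The summed level of the 20 microglial markers, such as *Cx3cr1* and *P2ry12*, was 6.99 to 24.9% of that of GFP- cells in WT-GFP astrocytes, that of the 20 endothelial markers, such as *Cldn5* and *Pecam1*, 4.37 to 23.7%, that of the 12 mural markers, such as *Pdgfrb* and *Rgs5*, 2.42 to 21.2%, that of the 8 border macrophage markers, such as *Mrc1* and *Cd163*, 0.390 to 32.7%, and that of the 14 neuronal markers, such as *Snap25* and *Syt1*, 9.09 to 28.0%. No marker of microglia, endothelial cells, mural cells or border macrophages was at 0 in all WT-GFP astrocyte samples, and 1 neuronal marker, *Gad2*, was. The lowest WT-GFP sample held 14.3% and 22.9% for *Tgfb2* and *Id3*. The part of such cells in the levels of these genes was not tested, and in sorted bulk samples fewer cells of a type cannot be told apart from less RNA per cell. The summed level of 9 genes of oligodendrocyte precursor cells, such as *Pdgfra* and *Cspg5*, was 69.0 to 98.0%, a sum to which *Cspg5*, the only 1 of the 9 called higher in astrocytes, contributed most, while the other 8 were called lower (median log2 fold change of the list -5.50). For *Pdgfra* the mean was 99.2 in astrocytes and 3349 in GFP- cells. The summed level of 10 oligodendrocyte genes, such as *Mbp*, was 143 to 211%, with *Mbp* and *Cnp* called higher and 3 genes lower.

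**Figure D3:**
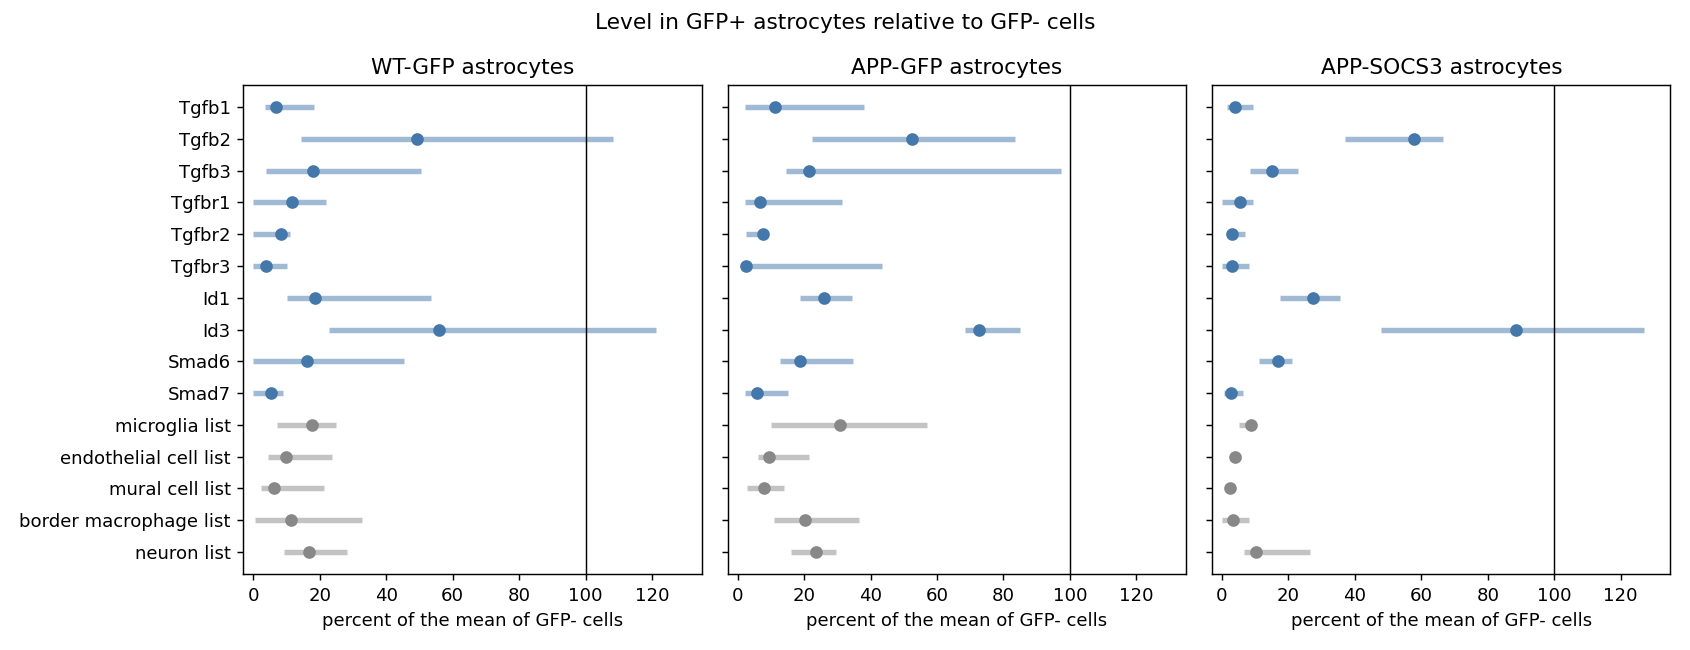
Levels in GFP+ astrocytes as a percent of the mean of the 3 samples of GFP- cells, for the 10 genes (blue) and for the summed level of 5 marker lists (grey). Bars span the lowest to the highest sample and points are medians, over 7 WT-GFP, 4 APP-GFP or 5 APP-SOCS3 samples. Tgfb2 and Id3 have the highest medians in each group. The bars of the microglial, endothelial, mural and border macrophage lists are lower in APP-SOCS3 than in APP-GFP samples, and those of the neuronal list overlap.

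Of 72 other genes of the TGF-beta and BMP pathway, 68 were tested between the sorted fractions, and 37 were called lower in astrocytes, 7 higher and 24 were not called. Over all genes tested, 33.5% were called lower and 9.25% higher, so that the share of the list called higher was near that of all genes. The list had a median log2 fold change of -1.81, against -1.31 for all genes. Genes called higher were the ligands *Gdf10* and *Inhba*, the BMP receptor *Bmpr1b*, the coreceptor *Rgma*, the secreted antagonist *Chrdl1* and the targets *Id2* and *Id4*. The calls of *Inhba*, *Rgma* and *Chrdl1* were lost with equal upper quartiles and with the replicate block, which left 4 genes called higher, and those of *Inhba* and *Chrdl1* also when single samples were left out. *Id4* ranged from 17296 to 26717 in WT-GFP astrocytes and from 1064 to 2899 in GFP- cells, and its log2 fold change was 3.64 ± 0.26 (SE) (limma, adjusted p = 7.05e-06). *Id2* ranged from 14984 to 23647 and from 3927 to 6809, with a log2 fold change of 1.90 ± 0.19 (SE) (limma, adjusted p = 2.82e-05). *Id1* and *Id3* were thus lower or not called where the other pair of Id genes was higher in astrocytes. *Bmpr1b* ranged from 233 to 1914 in astrocytes and from 25.0 to 255 in GFP- cells, with a log2 fold change of 3.61, and *Gdf10* from 729 to 1524 and from 86.6 to 268, with a log2 fold change of 2.71.

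Genes called lower were found in each role, where 33.5% of all genes tested were called lower. The share among antagonists was near this. The log2 fold changes of *Nrros*, *Smad1* and *Smad4*, given below, were close to the limma median of all genes (-1.31). Among ligands, *Nodal* (log2 fold change -7.43) and *Bmp5* (-5.75) had the smallest p after *Gdf10*. Among genes that store or activate latent TGF-beta, 4 of 9 were lower, including *Ltbp4*, which binds latent TGF-beta in the matrix (-4.02), *Thbs1*, an activator (-8.35), and *Nrros*, which anchors latent TGF-beta1 on microglia (-1.39). *Nodal* was at 0 in 3 of the 7 astrocyte samples, and *Bmp5* and *Thbs1* in 4 each. Their means were 67.0, 21.2 and 97.5 times higher in GFP- cells, smaller ratios than these log2 fold changes give. Among other receptors, the endothelial coreceptor *Eng* (-4.40) and the endothelial receptor *Acvrl1* (-3.42) were lower, and *Acvr1c* was at 0 in all 7 astrocyte samples and ranged from 3.02 to 112 in GFP- cells. Its call was lost without GFP- replicate 1 and with a minimum level of 100, and its level in GFP- cells was carried by the highest sample, with a median of 14.1. Of the 6 signal-carrying Smads, 3 were lower, with log2 fold changes of -1.16 for *Smad1*, -1.38 for *Smad4* and -4.76 for *Smad3*, and the other 3 were not called. Of 9 intracellular inhibitors, 8 were lower, including *Pmepa1* (-1.83), *Ldlrad4* (-1.89) and *Ski* (-1.97), in the same direction as *Smad6* and *Smad7*. Of 9 antagonists, 3 were lower, including *Fstl3* (-5.00) and *Dcn* (-3.28), and of the targets, *Ctgf* (-3.03) and 6 others. Without the 4 samples with few entries detected, 36 were called lower and 7 higher, and 41 of the 44 calls were kept.

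**Figure D4:**
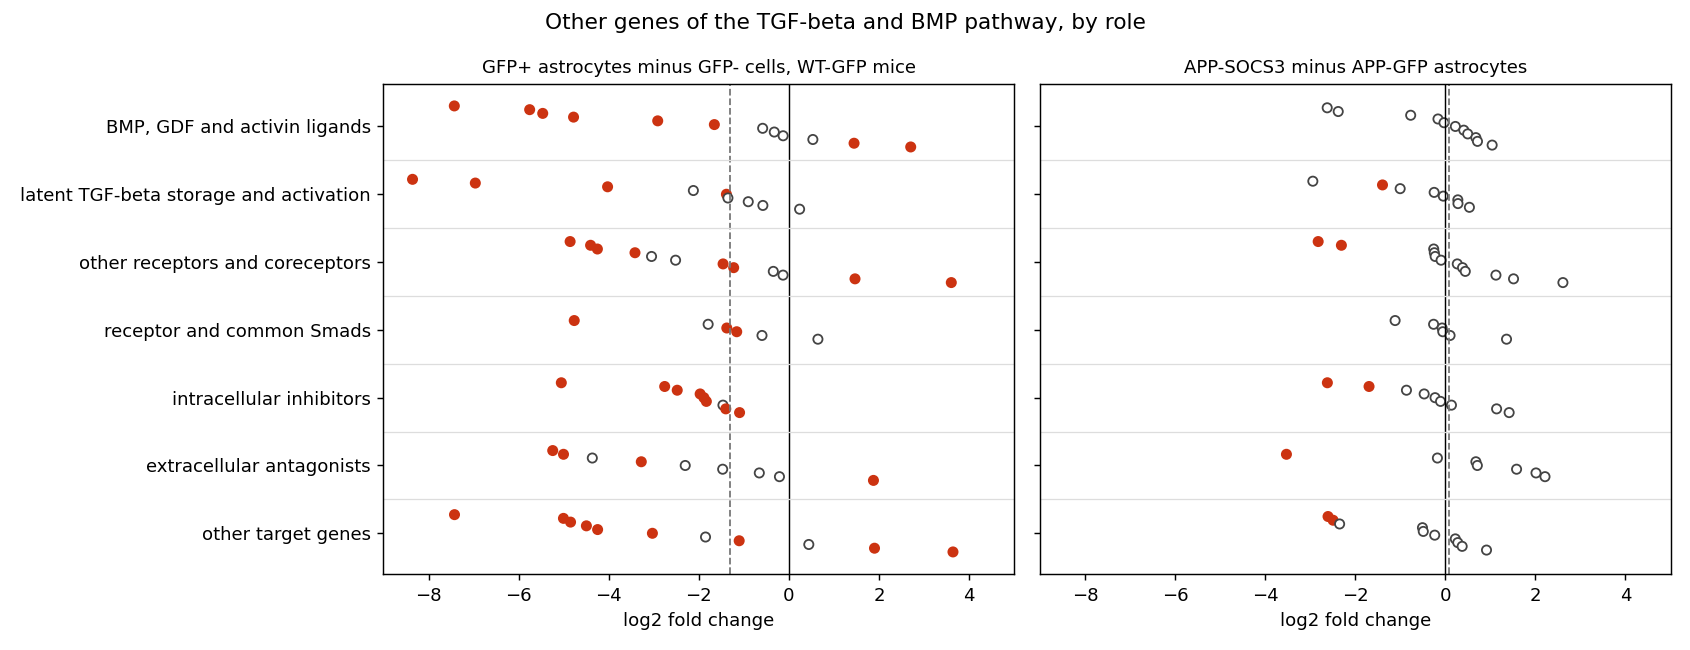
Log2 fold change of other genes of the TGF-beta and BMP pathway, grouped by role, between GFP+ astrocytes and GFP- cells of WT-GFP mice (left, 68 genes) and for SOCS3 in APP astrocytes, APP-SOCS3 against APP-GFP (right, 63 genes). Each point is a gene, filled red when called, and the dashed line is the median of all genes tested. On the left 37 genes were called lower and 7 higher, and on the right 8 were called lower and none higher.

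APP-GFP astrocytes were then compared with WT-GFP astrocytes, to find whether these genes change in a mouse model of Alzheimer's disease. None of the 10 genes was called in limma, edgeR or DESeq2, and 0 had an unadjusted p of at most 0.05 in any of these. Of all 22969 genes tested, 1.66% were called higher and 0.57% lower. All 10 log2 fold changes were above 0, with a median of 0.49 against 0.092 for all genes, but 6 of them turned below 0, and again none was called, without the 4 samples with few entries detected. The groups overlapped for every gene.

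For the ligands, *Tgfb1* had levels of 34.4, 364, 179 and 21.8 in the 4 APP-GFP samples, a spread wider than that of the 7 WT-GFP samples (34.2 to 175), and its log2 fold change was 0.23 ± 0.86 (SE) (limma, adjusted p = 0.999). Without APP-GFP replicate 2 it was -0.47. *Tgfb2* had 664, 178, 350.2 and 482 and a log2 fold change of 0.33 ± 0.56 (SE). *Tgfb3* had 101, 472, 71.2 and 108, where replicate 2 stood far above the other 3, and its log2 fold change was 0.59 ± 0.75 (SE). For none of the ligands was the difference larger than the spread between samples.

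The receptors were likewise not distinguishable. *Tgfbr1* had levels of 20.8, 317, 22.8 and 112 in APP-GFP astrocytes, with a log2 fold change of 0.13 ± 1.38 (SE). *Tgfbr2* had 87.8, 305, 295 and 213, with means of 225 in APP-GFP and 236 in WT-GFP astrocytes, and its log2 fold change of 0.78 ± 1.39 (SE) was above 0, with 1 WT-GFP sample at 0. Without WT-GFP replicate 2 it was -0.37. *Tgfbr3* had 15.4, 327, 12.9 and 23.5, and the log2 fold change of 1.89 ± 1.68 (SE) was the largest of the 10 in this comparison. Means differed 2.88-fold, with the highest level in APP-GFP replicate 2 and 3 WT-GFP samples at 0, and without the 4 samples with few entries detected the log2 fold change was -0.41.

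Of the inhibitory Smads, *Smad6* had levels of 170.2, 465, 253 and 247 in APP-GFP astrocytes and a log2 fold change of 1.39 ± 1.39 (SE), and *Smad7* had 34.4, 78.7, 144 and 20.1 and 0.98 ± 1.21 (SE). The target *Id1* had 2134, 1936, 2695 and 1484, within the range of WT-GFP astrocytes, and a log2 fold change of 0.27 ± 0.44 (SE). *Id3* had 18766, 19021, 22132 and 17839, also within that range, and 0.38 ± 0.35 (SE). Both Id genes varied less among APP-GFP than among WT-GFP samples, with SDs of 1865 and 8713 for *Id3*, a difference in spread that was not tested. Of the other genes of the pathway, none of 63 tested was called in either direction, and without the 4 samples with few entries detected 2 of 64 were called lower. The summed level of the microglial markers was 10.1 to 56.9% of that of GFP- cells in APP-GFP astrocytes, and 3 of the 20 were called higher than in WT-GFP astrocytes. Its part in the levels of these genes was not tested.

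The effect of SOCS3 was examined by comparing APP-SOCS3 with APP-GFP astrocytes. None of the 10 genes was called in limma, with or without APP-GFP replicate 2, or in edgeR, and none had an unadjusted p of at most 0.05 in either, while of all 22844 genes tested 2.33% were called higher and 3.37% lower. DESeq2 on whole reads called *Tgfb1* (log2 fold change -1.80) and *Tgfb3* (-1.33) lower, with adjusted p of 0.645 and 0.63, and gave no p for *Tgfbr3*. In limma, 8 of the 10 log2 fold changes were below 0, all but those of *Tgfb2* and *Id3*, and their median was -0.92 against 0.076 for all genes.

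*Tgfb1* had levels of 90.5, 14.9, 53.0, 36.3 and 18.5 in the 5 APP-SOCS3 samples, all within the range of APP-GFP samples or below it. Its mean was 3.52 times higher in APP-GFP astrocytes and its log2 fold change was -1.26 ± 0.93 (SE) (limma, adjusted p = 0.816). Without APP-GFP replicate 2, the sample with the highest *Tgfb1*, it was -0.56. *Tgfb2* had 459, 294, 529, 449 and 472, and with a log2 fold change of 0.20 ± 0.36 (SE) it was the ligand with the closest means in both groups. *Tgfb3* had 72.9, 111, 76.0, 68.6 and 40.4 and a log2 fold change of -0.97 ± 0.60 (SE), which was -0.39 without APP-GFP replicate 2.

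The receptors had lower means with SOCS3, but none passed the test. *Tgfbr1* had levels of 0, 94.9, 0, 53.9 and 61.5 and a log2 fold change of -2.37 ± 1.63 (SE), with 2 of the 5 samples listed at 0. *Tgfbr2* had 74.0, 234, 104, 71.6 and 128 and a log2 fold change of -0.87 ± 0.50 (SE), with an adjusted p of 0.816 in limma and a 2-sided exact permutation p of 0.143, the smallest exact p of the 10 genes. It was called lower without APP-GFP replicate 1 (-1.26) or without APP-SOCS3 replicate 2 (-1.13). *Tgfbr3* had 23.2, 62.3, 0, 25.5 and 0.879 and a log2 fold change of -1.96 ± 1.48 (SE), which was -0.90 without APP-GFP replicate 2.

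The inhibitory Smads and the targets overlapped between the groups. *Smad6* had levels of 150.1, 166, 283, 238 and 227 in APP-SOCS3 astrocytes and a log2 fold change of -0.36 ± 0.36 (SE), and *Smad7* had 16.6, 6.51, 61.0, 33.3 and 26.4 and -1.19 ± 0.86 (SE). *Id1* had 2148, 1368, 2791, 2146 and 1533 and a log2 fold change of -0.061 ± 0.24 (SE). *Id3* had 23032, 12466, 33125, 27729 and 20188 and a log2 fold change of 0.19 ± 0.24 (SE). *Id1* and *Id3* had the smallest SEs of the 10 genes in this comparison and *Tgfbr1* and *Tgfbr3* the largest, so that these data bound the effect on the targets more closely than that on the receptors.

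Among the other genes of the pathway, 8 of 63 tested were called lower in APP-SOCS3 astrocytes, none higher, and none at an adjusted p under 0.05 in limma. With DESeq2, 10 were called lower, none higher, and 2 had an adjusted p under 0.05. The 8 genes called in limma were the coreceptor *Eng*, the receptor *Acvrl1*, the matrix protein *Ltbp4*, the antagonist *Dcn*, the intracellular inhibitors *Tgif1* and *Skil*, and the targets *Fn1* and *Ctgf*. *Eng* had levels of 93.1 to 238 in APP-SOCS3 and 411 to 1770.3 in APP-GFP astrocytes, which did not overlap, and a log2 fold change of -2.31 ± 0.45 (SE) (limma, adjusted p = 0.348). *Acvrl1* had 32.5 to 132 and 158 to 1613, also without overlap, and -2.82 ± 0.69 (SE) (limma, adjusted p = 0.576). Log2 fold changes of the other 6 were -3.53 for *Dcn*, -2.62 for *Skil*, -2.60 for *Fn1*, -2.49 for *Ctgf*, -1.69 for *Tgif1* and -1.39 for *Ltbp4*. Over the pathway list, 3 genes (*Eng*, *Acvrl1* and *Tgif1*) were lower with SOCS3 without overlap and 1 other gene was higher without overlap. The share of all genes without overlap in this comparison was not counted. The call of *Skil* was lost under most alternatives, edgeR and DESeq2 included, and in 7 of 9 fits without a sample. Without APP-GFP replicate 2, 10 were called lower, including 7 of these 8, and without APP-GFP replicate 3, 4 were called (*Eng*, *Acvrl1*, *Tgif1* and *Fn1*).

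Each of these 8 genes was also called lower in astrocytes than in GFP- cells, in samples that this comparison does not use, as were 83.3% of the 756 genes of the whole table that were called lower with SOCS3 and tested in both. Between APP-SOCS3 and APP-GFP astrocytes, 19 of 20 microglial, 17 of 19 endothelial, 6 of 8 border macrophage and 5 of 12 mural markers were called lower with SOCS3. The summed level of the endothelial markers, as a percent of that of GFP- cells, was 6.26 to 21.6% without SOCS3 and 3.17 to 5.78% with it, which did not overlap, and *Erg* was at 0 in all APP-GFP samples. That of the microglial markers was 10.1 to 56.9% and 5.02 to 9.72%, also without overlap. Among border macrophage markers, *F13a1* was at 0 in all APP-SOCS3 samples. Their part in the levels of *Eng*, *Acvrl1*, *Tgfb1* and the other genes was not tested. Over the same samples, *Tgfb2*, *Id1* and *Id3*, the members with the smallest differences, differed by 0.20, -0.061 and 0.19 in log2 fold change. The part of other cells in their levels was not tested either.

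Over all 4 groups, GFP- cells had the highest mean for each of the 10 genes. Neither of the comparisons made between astrocyte groups called a difference in limma with all of their samples and no covariates. With DESeq2, *Tgfb1* and *Tgfb3* were called lower with SOCS3. WT-GFP and APP-SOCS3 astrocytes were not compared by a test. The mean was highest in APP-GFP, then WT-GFP and lowest in APP-SOCS3 astrocytes for 7 genes, all but *Tgfb2*, *Tgfbr2* and *Id3*. In this order, *Tgfb1* means were 149.9 ± 159.8 (SD, n = 4), 87.1 ± 60.0 (SD, n = 7) and 42.6 ± 30.8 (SD, n = 5), below 961 ± 227 (SD, n = 3) in GFP- cells. The first place of APP-GFP rested on replicate 2 for *Tgfb1*, *Tgfb3*, *Tgfbr1*, *Tgfbr3* and *Smad6*. Without this sample, the APP-GFP means of these genes were below those of WT-GFP astrocytes. For *Tgfb2* the order was APP-SOCS3, APP-GFP and WT-GFP, with 441 ± 87.7 (SD, n = 5), 419 ± 205 (SD, n = 4) and 369 ± 257 (SD, n = 7). *Id3* had the same order as *Tgfb2*, with 23308 ± 7799 (SD, n = 5), 19439.5 ± 1865 (SD, n = 4) and 16790.3 ± 8713 (SD, n = 7), and 26056 ± 257 (SD, n = 3) in GFP- cells. For *Tgfbr2* it was WT-GFP, APP-GFP and APP-SOCS3, with 236 ± 132 (SD, n = 7), 225 ± 100.3 (SD, n = 4) and 122 ± 66.8 (SD, n = 5). The coefficient of variation among WT-GFP astrocytes was between 51.9% for *Id3* and 104% for *Tgfbr3*, and in GFP- cells it was below that of WT-GFP astrocytes for all 10 genes, between 0.675% for *Tgfb3* and 42.6% for *Tgfbr1*.

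Finally, the genes whose levels were most like each of the 10 over the 16 astrocyte samples were sought by Pearson's r of log2 levels among the 10237 genes whose mean level was 100 or more, as a description. *Tgfbr3* and *Smad7* were left out, as their mean levels in astrocytes were under 50. For *Tgfb1* they were *Ptrf*, *Tpm1* and *Palmd* (r = 0.88 to 0.91, and 0.85 to 0.86 without the 2 samples farthest from the median of the gene). For *Tgfb2* they were *Vps52*, *Lingo4* and *Tanc1* (0.88 to 0.89, and 0.80 to 0.93 without such samples), and for *Tgfb3* *Trap1* and *Ddx50* (0.84 to 0.86, and 0.54 to 0.60). For the receptors they were *Ppfibp1*, *Parva* and *Tcp11l2* for *Tgfbr1* (0.90 to 0.93, and 0.86 to 0.92) and *Ntn4*, *Gnpat* and *Elmod1* for *Tgfbr2* (0.96 to 0.97, and 0.69 to 0.77). For *Smad6* they were *Car5b*, *Creb3l2* and *Rpap1* (0.95 to 0.96), and r fell to 0.34 to 0.60 without WT-GFP replicates 1 and 6, so that this likeness rested on these samples. For *Id1* they were *Zfp771*, *Gm10023* and *Dennd6a* (0.89 to 0.93, and 0.81 to 0.95) and for *Id3* *Tmem238*, *2410022M11Rik* and *Khk* (0.88 to 0.91, and 0.69 to 0.82). None of these genes was on the pathway list or a marker list, and a gene shares with its neighbours here the same libraries, depth and number of entries detected.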

How the data were processed

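RNAseq values of 19 samples were used, in groups taken from the labels of the samples. The authors made cDNA with a kit for low RNA input that includes PCR amplification, aligned reads with STAR 2.4.0 (mm10), counted those on constitutive gene regions as annotated in FAST DB, and scaled the counts with DESeq2. What was deposited is thus a normalized signal, the read count of a gene over the size factor of its sample, and all columns were used. All values above 0 (100%) were whole multiples of the value of 1 read within a tolerance of 0.01, so whole reads were recovered. One read was worth 0.756 to 1.18 units of level.

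Groups were compared with limma 3.58.1 in R 4.3.3 on log2(level + 1) with a mean-variance trend, for genes whose mean level reached 10 in a group of the comparison, without covariates, and p-values were adjusted by Benjamini-Hochberg over all genes tested. On this scale the pseudocount shrinks the fold changes of low genes, while samples at 0 can make them larger than the ratio of mean levels, as for *Tgfbr3*, *Tgfbr2* and *Smad6* between the sorted fractions. The thresholds of the study were used for calls (unadjusted p not above 0.05, 1.5-fold or more). Its filter on intergenic background was not used here. For the 10 genes 2-sided exact permutation tests were added, which cannot go below 0.0167, 0.00606 and 0.0159 in the 3 comparisons. In order of the report, limma called 11419, 513 and 1301 genes, and on whole reads edgeR 4.0.16 called 8588, 659 and 1323 and DESeq2 1.42.0 called 8957, 530 and 1440. The scripts were tested on simulated reads.

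The 10 genes, the pathway list (72 genes) and the marker lists were chosen with earlier results of these data known. Named pathway genes are, in each role, up to 3 called genes with the smallest p, and the first 2 genes are named of each marker list. Some genes that these rules select are not reported here. *Inhba*, *Rgma*, *Chrdl1*, *Cnp*, *Gad2*, *Erg* and *F13a1* were named beyond this rule, after their values were seen. Of the listed entries, 6 also name a microRNA. Alternatives were pseudocounts of 0.1 and 10, a minimum level of 100 or none, equal upper quartiles or totals, a fit of all 19 samples, edgeR, DESeq2, a replicate block, adjusted p, a fold change of 2 and leaving out each sample. Leaving out the 4 samples with under 20000 entries detected was added after seeing the data. Lengths of the counted regions were not used here, so levels were not compared between genes.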

Additional observations from a re-analysis of the deposited data

Results flagged for a closer look

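Of 30 sets of values of a gene in a group of 4 to 7 samples, 2 held a sample far from the others by Dixon's criterion. For normally distributed values, chance gives this in about 1 in 20 groups, and 2 of 30 is near that rate. The criterion was applied to untransformed levels, for which this rate need not hold. On the log2 scale used for the tests, neither gap passed it. Both were the same sample, APP-GFP replicate 2. *Tgfb3* was at 472 there, with the next highest at 108 and the lowest at 71.2 among the 4 APP-GFP samples, so that the gap took 0.908 of the range (critical value 0.829). *Tgfbr3* was at 327, with the next highest at 23.5 and the lowest at 12.9, and the gap took 0.966 of the range. The same sample had 16471 entries detected, the fewest of its group, and also had the highest *Tgfb1*, *Tgfbr1*, *Tgfbr2* and *Smad6* of the group. Among the APP-GFP samples it also had the highest summed level of endothelial, mural, border macrophage, neuronal and oligodendrocyte markers, at 21.6, 13.8, 36.5, 29.5 and 558% of that of GFP- cells, with up to 12.7, 11.9, 23.1, 27.6 and 197% in the other 3. It was not the highest for microglial markers (46.1%, with 56.9% in replicate 3) or oligodendrocyte precursor markers (82.6%, with 85.8% in replicate 1). The part of the entries detected and of these cells in its values was not tested.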

How the results depend on the processing

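Between the sorted fractions, all 10 log2 fold changes stayed below 0 in each of 11 alternatives and 10 leave-outs. The number of these genes called was 7 to 10 under the alternatives to the test, filter, scaling and samples and 6 to 9 when 1 sample was left out, lowest without GFP- replicate 3. *Tgfb1*, *Tgfb3*, *Tgfbr2*, *Tgfbr3*, *Id1* and *Smad7* were called in all of them. *Smad6* and *Tgfbr1* lost their call with a pseudocount of 0.1 (log2 fold changes -4.18 and -4.47) and *Tgfb2* with edgeR and DESeq2 (-0.85 and -1.06). *Smad6* and *Tgfb2* also lost it with the replicate block. *Id3* was called lower when scaled to equal totals (-0.99) or upper quartiles (-1.27) and in the fit of all 19 samples (-0.81). It was also called lower with the replicate block and without WT-GFP replicate 2 or 6. The median of all genes, -1.31, was -1.74 with equal upper quartiles, -0.37 with edgeR and -0.67 with DESeq2, and genes called higher and lower, 2471 and 8948, were 1351 and 11098, 3323 and 5265, and 3173 and 5784. Among all genes, 6709 were called with a minimum of 100 in place of 11419, which tests fewer genes, and leaving out 1 sample gave 8838 to 11679.

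Between APP-GFP and WT-GFP astrocytes none of the 10 genes was called under any alternative, and signs were not stable. Without the 4 samples with few entries detected, log2 fold changes turned to -0.11 for *Tgfb1*, -0.25 for *Tgfb3*, -1.40 for *Tgfbr1*, -0.71 for *Tgfbr2*, -0.41 for *Tgfbr3* and -0.088 for *Smad7*. *Tgfbr1* turned to -0.17 with a pseudocount of 10, and *Tgfbr2* to -0.055 with edgeR and -0.074 with DESeq2. Leaving out 1 sample gave -0.47 to 0.86 for *Tgfb1* (below 0 without APP-GFP replicate 2 at -0.47 or 3 at -0.13), -0.86 to 0.66 for *Tgfbr1* (below 0 without WT-GFP replicate 2 at -0.86, APP-GFP replicate 2 at -0.63 or APP-GFP replicate 4 at -0.13) and -0.37 (without WT-GFP replicate 2) to 1.18 for *Tgfbr2*. Genes called higher and lower over the whole table were 382 and 131, and 416 and 38 with equal upper quartiles (median of all genes 0.27 in place of 0.092) and 205 and 325 with DESeq2. The total was 513, and 817 without a minimum level, 123 with a minimum of 100 and 991 in the fit of all 19 samples. Leaving out 1 sample gave 393 to 677. An adjusted p under 0.05 was reached by 1 gene in limma and by 24 with DESeq2.

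Between APP-SOCS3 and APP-GFP astrocytes the number of the 10 genes called went from 0 to 2 with DESeq2 (*Tgfb1* and *Tgfb3*), and leaving out 1 sample gave 0 to 1 (*Tgfbr2*, without APP-GFP replicate 1 or APP-SOCS3 replicate 2). *Tgfb2* turned to -0.16 without APP-GFP replicate 2, the only 1 of the 4 samples in this comparison, and reached 0.47 without APP-GFP replicate 1. *Id1*, at -0.061, turned to 0.11 with equal upper quartiles, and to 0.079 without APP-GFP replicate 3, 0.064 without APP-SOCS3 replicate 2 and 0.023 without APP-SOCS3 replicate 5, with a lowest value of -0.21 without APP-GFP replicate 4. Among all genes, 650 were called with a minimum of 100 in place of 1301, which tests fewer genes. An adjusted p under 0.05 was reached by 1 gene in limma and by 205 with DESeq2. With edgeR, 398 were called higher and 925 lower in place of 532 and 769, and leaving out 1 sample gave 1052 to 1836. The cause of these other changes was not tested.

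Whether replicate numbers pair the samples was not settled. Deviations from group means of samples with the same number correlated by -0.06 to 0.08 between the sorted fractions. The correlations were 0.01 to 0.21 between APP-GFP and WT-GFP and -0.10 to 0.11 between APP-SOCS3 and APP-GFP astrocytes. The sample of the same number was nonetheless the best correlated one for WT-GFP replicates 1 and 2 against GFP- cells. The same held for APP-GFP replicates 1 and 2 against WT-GFP, and for APP-SOCS3 replicates 2, 3 and 4 against APP-GFP. It did not hold for the other numbers present in both groups. With the replicate block, which uses only numbers present in both groups, 8 of the 10 genes were called lower between the sorted fractions, 0 between APP-GFP and WT-GFP, and 1 with SOCS3 (*Tgfbr1*), and 10999, 663 and 1132 of all genes. With this block, *Tgfb1* turned to -0.14 between APP-GFP and WT-GFP and *Id1* to 0.023 with SOCS3.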
